A study of Homo sapiens with 5 samples.

Results

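Arsenic-only Nrf2 regions near start sites made up 494 of the 21088 regions that the deposited list merges over 4 ChIP-seq libraries. The regions were chosen by presence calls and position: each overlapped, by at least 1 bp, an interval called in the Nrf2 library from arsenic-treated cells and no interval of the other 3 libraries, and had its centre within 3 kb of the start site (TSS) of a protein-coding transcript. Of the 21088 merged regions, 3516 (16.7%) held an Nrf2 arsenic interval and no other. Within 3 kb of a TSS lay 494 of these 3516 (14.1%), against 58.7% of all merged regions. Each of the 494 regions had the same limits as 1 Nrf2 arsenic interval, so its width is that of the called interval.

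The study asked where Nrf2 and HIF1α, the oxygen-sensitive subunit of the hypoxia factor HIF1, sit on the genome once cells meet inorganic arsenic (iAs). All libraries came from BEAS-2B, an immortalized line of human bronchial epithelial cells, kept overnight without serum. Cells then spent 6 h with 1 μM iAs or without it, and their chromatin was immunoprecipitated for Nrf2 or HIF1α. That gave 4 libraries named here Nrf2 control, Nrf2 arsenic, HIF1α control and HIF1α arsenic, beside input DNA that has no called intervals. By the sample labels the Nrf2 antibody came from Santa Cruz and that for HIF1α from Abcam, whereas the methods name another supplier. There is 1 library per antibody and condition, so no difference between control and iAs has a replicate check. The intervals carry no height, and the read depth is unknown. A region without an Nrf2 control interval therefore had no call in control cells, which does not show that Nrf2 was absent there. Peak intervals hold no RNA, so the cell type could not be checked against its markers.

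Nrf2 is a transcription factor of the cap'n'collar family that the adaptor KEAP1 marks for degradation in unstressed cells. Arsenite and electrophiles act on cysteines of KEAP1, and Nrf2 then accumulates, pairs with a small MAF protein and binds the antioxidant response element (ARE). Genes for glutathione and thioredoxin enzymes, quinone reductases, ferritin and heme oxygenase are its best-known targets, and BACH1 competes for the same element. AP-1 proteins, dimers of the JUN and FOS families, bind a shorter word that forms part of the ARE.

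Of the 494 regions, 62 held the full ARE core, TGACTCAGC, on either strand within 100 bp of the centre. Their sequences from hg19 are shown here because this core is what links a called interval to the element that Nrf2 binds. Each window has 29 bases, reads 5′ to 3′ on the strand that carries TGACTCAGC, and has the core in capitals. The first 12 are the regions with a core whose centres lay nearest a TSS, in that order, and the next 5 lie at genes of the lists described further on.
IGFBP6 (chr12:53492532-53492560, minus strand): acccacccagTGACTCAGCttctgctctc
ADGRG1 (chr16:57662338-57662366, minus strand): gggatgcccaTGACTCAGCgccgggcaag
COQ8B (chr19:41221683-41221711, minus strand): ccaaggttccTGACTCAGCactgggaatc
PRR5 (chr22:45072832-45072860, minus strand): ggctcccccaTGACTCAGCagaactcagg
EIF4G1 (chr3:184038007-184038035, minus strand): ggagccagggTGACTCAGCggcttcccca
ROM1 (chr11:62380674-62380702, plus strand): cgggccgggcTGACTCAGCatcctgcccc
SRPX2 (chrX:99899075-99899103, minus strand): cttctttttaTGACTCAGCatgacataag
SLC22A18 (chr11:2924466-2924494, plus strand): tgggacccagTGACTCAGCacccctgccc
PHEX (chrX:22154603-22154631, minus strand): ggttgccaagTGACTCAGCattggcccag
PFN2 (chr3:149740676-149740704, plus strand): gcaacctgtaTGACTCAGCagaagcagcc
TEX19 (chr17:80317002-80317030, plus strand): agggagctggTGACTCAGCactttcattt
NEK8 (chr17:27062470-27062498, minus strand): gggagagacaTGACTCAGCtagaggagaa
BACH1 (chr21:30672627-30672655, minus strand): ctggggcgaaTGACTCAGCaacccaactt
KRT8 (chr12:53319119-53319147, minus strand): cctccagcccTGACTCAGCctgagcccct
KRT19 (chr17:39680263-39680291, plus strand): gagggggttgTGACTCAGCagagcctggt
BAG3 (chr10:121417967-121417995, plus strand): gctggcctgaTGACTCAGCatggagcgct
PDK1 (chr2:173417644-173417672, minus strand): ctccagaaacTGACTCAGCataagatgac

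The base that directly follows the core was A in 36 of the 62 windows (58.1%), and the base that directly precedes it was T in 2 (3.23%). The bases farther out varied.

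Entire intervals are shown at 2 metabolic genes of the lists, with every looser ARE core (TGACNNNGC) and AP-1 site (TGACTCA or TGAGTCA) in capitals, on the plus strand. The interval upstream of PDK1, the kinase that switches off pyruvate dehydrogenase, has 189 bp and lies outside transcripts at chr2:173417622-173417810. The interval in an intron of GLDC, the glycine decarboxylase of mitochondria, has 192 bp at chr9:6566519-6566710. The PDK1 interval holds a full core and, apart from it, a second AP-1 site, while the GLDC interval holds an AP-1 site and no ARE core.
PDK1: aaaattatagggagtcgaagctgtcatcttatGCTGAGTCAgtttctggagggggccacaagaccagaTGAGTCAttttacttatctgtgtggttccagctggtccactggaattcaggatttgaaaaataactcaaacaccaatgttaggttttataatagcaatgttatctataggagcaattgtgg
GLDC: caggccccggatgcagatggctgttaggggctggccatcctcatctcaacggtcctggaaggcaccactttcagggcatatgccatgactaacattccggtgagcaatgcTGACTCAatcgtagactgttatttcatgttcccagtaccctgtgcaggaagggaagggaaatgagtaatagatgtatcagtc

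The arsenic-only Nrf2 regions were densest beside the TSS and extended over the whole 6 kb around it. The 250 bp bins directly upstream and downstream of the TSS held 12.3% and 12.8% of the regions. The centre of the median region lay 862 bp from the nearest TSS, with quartiles of 249.8 and 1804 bp. Within 500 bp lay 179 of 494 regions (36.2%, Wilson 95% interval 32.1 to 40.6). In the 222 regions near start sites that held Nrf2 intervals in both conditions and no HIF1α interval, 85 (38.3%) lay within 500 bp. The difference was -2.05 points (Newcombe 95% interval -9.78 to 5.46; two-sided Fisher's exact test, adjusted p = 0.62). In the 7964 regions near start sites that held HIF1α arsenic intervals alone, the share was 78.3%, and the difference of -42.1 points (-46.3 to -37.7) passed the same exact test (adjusted p = 5e-83). These tests, like all tests here, compare regions of single libraries and say nothing of the variation between cultures.

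Regions on both sides of the TSS were about equally frequent: 238 of 494 (48.2%, interval 43.8 to 52.6) had their centre upstream. Nrf2 regions of both conditions were upstream in 138 of 222 (62.2%), a difference of -14 points (-21.5 to -6.1; Fisher's exact test, adjusted p = 0.00066). HIF1α arsenic-only regions were upstream in 33.8%, a difference of 14.4 points (9.93 to 18.9; exact test, adjusted p = 3.6e-10). By the annotation at their centre, 294 arsenic-only Nrf2 regions (59.5%) lay in an intron, 122 (24.7%) outside protein-coding transcripts, 55 (11.1%) in a 5′-UTR, 18 (3.64%) in a coding exon and 5 (1.01%) in a 3′-UTR. Only 327 of the 494 lay within 3 kb of the canonical TSS of a gene. The other 167 lay near an alternative TSS alone.

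**Figure D1:**
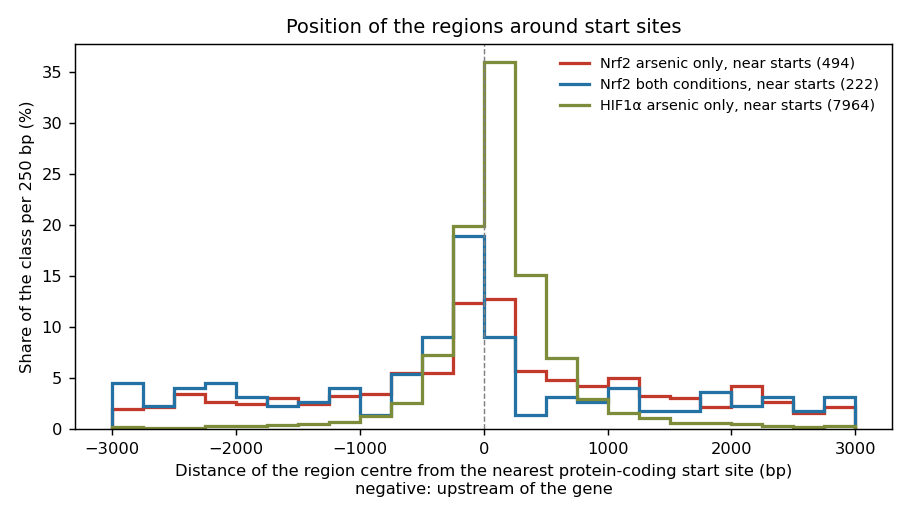
Share of each class of region (%, y axis) by distance of its centre from the nearest protein-coding TSS (bp, x axis, bins of 250 bp, negative upstream). The 494 arsenic-only Nrf2 regions (red) are highest in the bins beside the TSS and extend over both sides, with 36.2% within 500 bp, the 222 Nrf2 regions of both conditions (blue) have their highest bin just upstream, and the 7964 HIF1α arsenic-only regions (green) pile up just downstream with 78.3% within 500 bp.

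The intervals were narrow. Their median width was 263.5 bp (quartiles 210.2 and 367, range 181 to 1158), beside 265 bp in the 3022 arsenic-only Nrf2 regions away from start sites. At the lowest width of the whole Nrf2 arsenic list, 181 bp, stood 30 of the 494 regions (6.07%), against 3.84% of all its intervals. The Nrf2 arsenic intervals of the 222 regions with calls in both conditions had a median of 573 bp. Of the 494 regions, 31.4% were wider than the median of all 7743 Nrf2 arsenic intervals, 333 bp, against 85.1% of the 222. Widths are given without a test, since the absence of a control call may go with width.

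**Figure D2:**
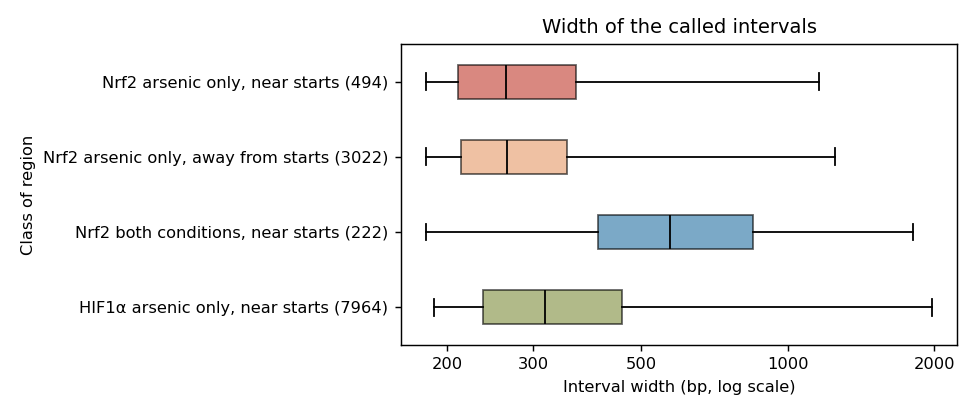
Width of the called interval (bp, log x axis) in 4 classes of region (y axis), with boxes at the quartiles, a line at the median and whiskers at the lowest and highest value. The arsenic-only Nrf2 regions have medians of 263.5 bp near start sites and 265 bp away from them, below the 573 bp of the Nrf2 regions called in both conditions.

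The 12 widest regions led with TALDO1, transaldolase of the pentose phosphate pathway, whose interval of 1158 bp (chr11:746156-747313) was centred at -0.693 kb. Distances are signed along the gene, and a negative value is upstream of the TSS. ZFAND5, a zinc finger protein that stimulates the proteasome, had an interval of 1028 bp in an intron at 2.05 kb, and SPATS2 one of 966 bp at 1.24 kb. LIMK1, a kinase of cofilin, had 821 bp at 1.06 kb, and the 805 bp interval at 0.041 kb from a NOL3 start also lay within 3 kb of HSF4, a heat shock factor. RUBCN, an inhibitor of autophagy, had 763 bp, NINJ2 751 bp and SEL1L3 746 bp. The NOL3, RUBCN and NINJ2 intervals lay -3.42, 18 and 17.6 kb from the canonical TSS. ALDH3A2, a fatty aldehyde dehydrogenase, had 743 bp at -0.728 kb, and CLDN4, a tight junction claudin, 722 bp at 2.44 kb. FTH1 and GCLC, with 706 and 695 bp, closed the 12. Of these 12 wide regions, CLDN4 alone held the full ARE core within 100 bp of its centre, and AP-1 sites were found there at SPATS2, CLDN4 and GCLC. The rest of these intervals was not searched for these counts. Over all 494 regions the shares were 12.6% and 30.4%, and a set of 12 is too small to differ clearly from them. The core was present in 21 of the 123 regions of 369 to 1158 bp (17.1%) and 12 of the 124 of 181 to 210 bp (9.68%). For the AP-1 site these shares were 30.9% and 28.2%. Shares by width were not tested.

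The full ARE core and the AP-1 site were found in larger shares of these regions than of sequence 5 kb away, and in smaller shares than of the arsenic-only Nrf2 regions away from start sites. The full core TGACTCAGC was present in 62 of 494 windows of 200 bp (12.6%, interval 9.91 to 15.8), and in 1 of 494 (0.202%) when the windows were moved by 5 kb. It was present in 0.246% of the windows at the canonical TSS of 19475 protein-coding genes and in 5.81% of all merged regions. In the 3022 regions away from start sites it was present in 545 (18.0%), a difference of -5.48 points (-8.47 to -2.01; Fisher's exact test with Benjamini-Hochberg adjustment over 24 comparisons, adjusted p = 0.005). In the 222 Nrf2 regions of both conditions it was present in 49 (22.1%), a difference of -9.52 points (-16 to -3.62; exact test, adjusted p = 0.0037). Among the 7964 HIF1α arsenic-only regions, 14 (0.176%) held it (exact test, adjusted p = 2e-63). The difference from the regions away from start sites was -3.12 points, and did not pass (exact test, adjusted p = 0.41), once both classes were limited to regions at least 1 kb from the other libraries' intervals. That from the regions of both conditions did not pass in windows of 50 bp on each side, where it was -2.62 points (exact test, adjusted p = 0.36).

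The AP-1 site, which every full core contains, was present in 150 of the 494 windows (30.4%, interval 26.5 to 34.6), against 3.24% of the moved windows and 2.11% of canonical TSS windows. The share was 44.1% away from start sites, a difference of -13.7 points (-18 to -9.2; Fisher's exact test, adjusted p = 2.3e-08), or -7.92 points (adjusted p = 0.033) with both classes limited in that way, and 40.1% in the Nrf2 regions of both conditions (-9.73 points, -17.4 to -2.22; adjusted p = 0.024, or 0.79 with 50 bp on each side, where the difference was -0.994 points). With both of these classes limited to regions at least 1 kb from intervals of the libraries that had no call in them, the latter difference was 0.263 points (exact test, adjusted p = 1). The looser core TGACNNNGC, in which N is any base, was present in 158 windows (32.0%), 6.88% of the moved windows, 34.0% of the regions away from start sites (exact test, adjusted p = 0.48, difference -2.03 points, -6.35 to 2.52) and 37.8% of the regions of both conditions (adjusted p = 0.22, -5.85 points, -13.5 to 1.59). The last difference passed when whole intervals were searched, which are wider in the regions of both conditions (-26.1 points, exact test, adjusted p = 2.9e-10), and with a TSS distance of 5 kb (-8.18 points, adjusted p = 0.027). A full core was present in 62 of the 494 windows, a looser core without it in 96, an AP-1 site alone in 78, and none of these words in 258 (52.2%). Where the full core was present, it lay a median of 38.5 bp from the centre.

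The GC box and the hypoxia core were more frequent at these regions than at the arsenic-only Nrf2 regions away from start sites. Both were less frequent than in the HIF1α class and at canonical TSSs. The GC box, GGGCGG, bound by Sp1 proteins, was present in 75 of 494 windows (15.2%), 4.10% of the Nrf2 arsenic-only regions away from start sites (difference 11.1 points, 8.08 to 14.6; Fisher's exact test, adjusted p = 2.9e-17), 9.91% of the regions of both conditions (5.27 points, -0.195 to 10; adjusted p = 0.095) and 57.3% of the HIF1α class (adjusted p = 7.7e-78). The core of the hypoxia response element, ACGTG or GCGTG, was present in 140 windows (28.3%) and in 20.6%, 31.5% and 51.2% of those classes (exact tests, adjusted p = 0.00039, 0.51 and 8.9e-23), though the first difference, 7.72 points, was 3.5 points with both classes limited to regions 1 kb apart from the other libraries (exact test, adjusted p = 0.33). The second, -3.19 points, was -21.6 points with whole intervals searched (exact test, adjusted p = 2.2e-07). At canonical TSSs, 54.0% of windows held the GC box and 43.4% the hypoxia core, against 6.3% and 21.7% of the moved windows. The CCAAT box was present in 22.7% of the windows, against 23.7% of the moved windows and 10.6% of the HIF1α class (exact test, adjusted p = 4.7e-13). The ETS word CCGGAAG was found in 12 windows (2.43%) and the cyclic AMP response element TGACGTCA in 2. The median GC content in 300 bp was 50.3%, against 45% away from start sites, 48% in the regions of both conditions and 71% in the HIF1α class.

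**Figure D3:**
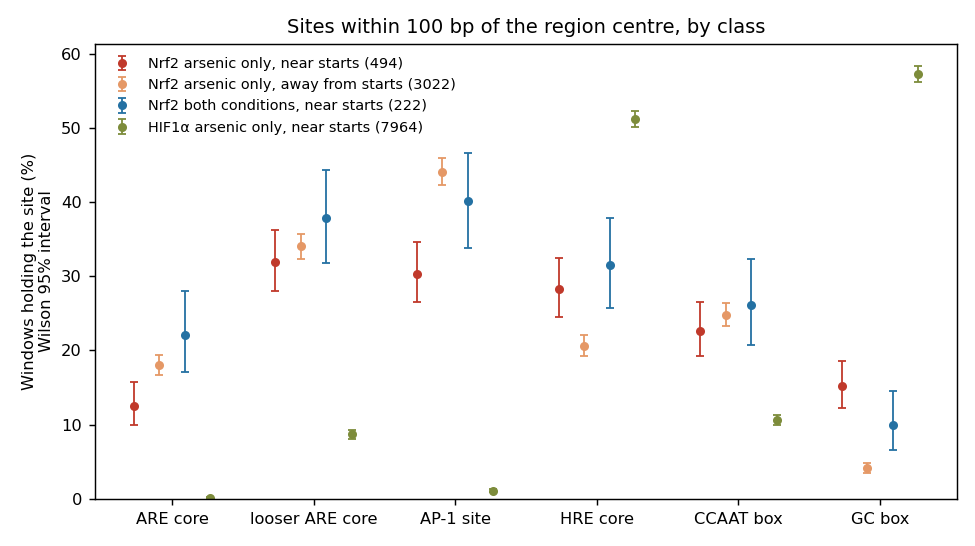
Share of windows (%, y axis) that hold each word within 100 bp of the region centre, with Wilson 95% intervals, for 6 words (x axis) and 4 classes of region. The arsenic-only Nrf2 regions near start sites (red) hold the ARE core in 12.6% and the AP-1 site in 30.4%, below the other Nrf2 classes and above the HIF1α class, whose points are highest for the HRE core and the GC box.

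Inside the 3 kb limit, none of the 8 words had shares that differed past the threshold between regions within 500 bp of the TSS and those farther out. The GC box was present in 20.7% of 179 regions within 500 bp and 12.1% of 315 beyond (difference 8.61 points, 1.94 to 15.8; Fisher's exact test, adjusted p = 0.1), and the AP-1 site in 25.1% and 33.3% (-8.19 points, -16.1 to 0.259; adjusted p = 0.27). With the dividing distance at 1 kb both passed the test, the GC box by 10.9 points and the AP-1 site by -13.4 points (exact tests, adjusted p = 0.0065 each). The full core was present in 10.6% and 13.7% of the regions within and beyond 500 bp (exact test, adjusted p = 0.45).

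Smaller shares of the regions close to intervals of the other libraries held ARE and AP-1 words. The gap from a region to the nearest Nrf2 control interval was under 1 kb in 71 of 494 regions (14.4%), against 9.23% of the regions away from start sites, and the gap to a HIF1α arsenic interval in 148 (30.0%), against 1.56%. The classes are divided at 3 kb from a TSS, and 46.5% of genes had a HIF1α arsenic interval within that distance. The HIF1α contrast therefore cannot be told apart from position. The full core was present in 1 of the 71 regions close to an Nrf2 control interval (1.41%, interval 0.249 to 7.56) and the AP-1 site in 4 (5.63%, 2.21 to 13.6). Among the 148 regions close to a HIF1α arsenic interval, the core was present in 12 (8.11%) and the AP-1 site in 32 (21.6%). Among the 286 regions at least 1 kb from every interval of the other libraries, the core was present in 48 (16.8%, 12.9 to 21.5) and the AP-1 site in 113 (39.5%, 34.0 to 45.3). These groups, split after the values had been seen, were not tested against one another. Against all 3022 regions away from start sites, these 286 differed by -1.25 points for the full core (exact test, adjusted p = 0.89) and -4.6 points for the AP-1 site (adjusted p = 0.28). Against the 2663 of them that also lay 1 kb apart, chosen after seeing the data, the differences were the -3.12 and -7.92 points given above, of which the AP-1 difference passed the test. The regions away from start sites showed the same split, with the core in 2.51% of 279 regions close to an Nrf2 control interval and 19.9% of 2663 regions apart from the other libraries.

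**Figure D4:**
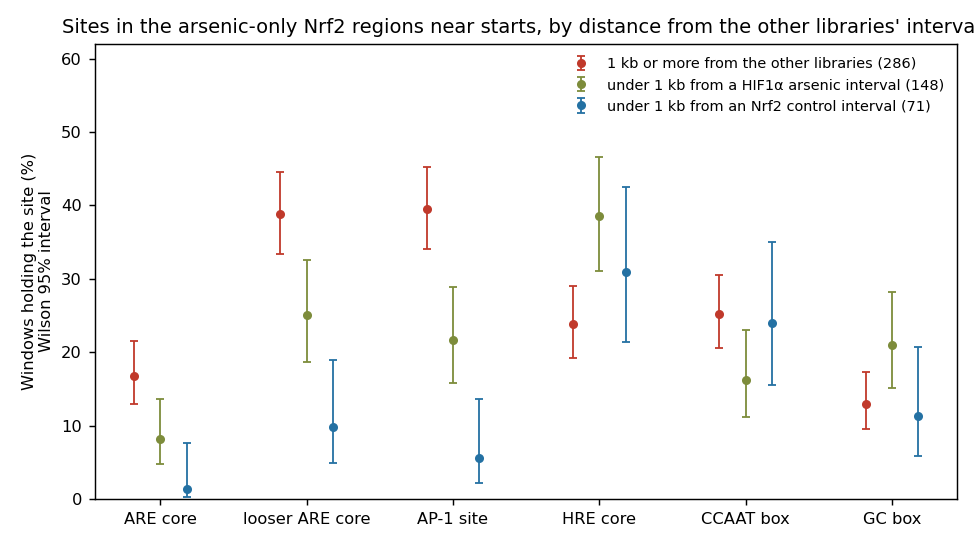
Share of the arsenic-only Nrf2 regions near start sites (%, y axis, Wilson 95% intervals) that hold each of 6 words (x axis), for 286 regions at least 1 kb from every interval of the other libraries, 148 under 1 kb from a HIF1α arsenic interval and 71 under 1 kb from an Nrf2 control interval (a region can be in both of the last groups). The AP-1 site is found in 39.5%, 21.6% and 5.63% of these groups.

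Other Nrf2 intervals lay close to many of the regions. Another Nrf2 arsenic interval lay under 1 kb away from 166 of the 494 regions (33.6%, interval 29.6 to 37.9), against 17.5% of the regions away from start sites. For 75 regions (15.2%) that neighbour was itself called in both conditions. The neighbour had a median width of 855 bp and the region beside it 259 bp, and the neighbour was the wider in 69 of the 75. The closest approach to another library was at FKBP5, a co-chaperone of steroid receptors, where the region adjoined a HIF1α arsenic interval with 0 bases between them. Gaps of 2 bp at IDE, 6 bp at ITGBL1, 8 bp at GLA, 11 bp at MACF1 and 14 bp at TXNRD1 followed.

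The 494 regions lay within 3 kb of a TSS of 486 protein-coding genes, 2.46% of 19794. By the same distance, 3.66% of genes had an Nrf2 control interval, 7.72% an Nrf2 arsenic interval, 19.2% a HIF1α control interval and 46.5% a HIF1α arsenic interval. Of the 486 genes, 101 (20.8%, interval 17.4 to 24.6) also had an Nrf2 control interval near a TSS. A HIF1α control interval was found at 153 (31.5%), a HIF1α arsenic interval at 313 (64.4%) and none of the other 3 libraries at 135 (27.8%). Another Nrf2 arsenic interval lay near a TSS of 155 (31.9%). Genes with many transcript starts have more room for each kind of interval, so these shares are a description.

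Of 42 established Nrf2 target genes, 14 (33.3%) had an arsenic-only region within 3 kb of a TSS, against the 2.46% of all genes. This list and those that follow were drawn up with earlier results of these data known, and the 2.46% is the background for each. In 8 of the 14 an Nrf2 control interval also lay near a TSS, as it did at 21 of the 42 genes on the list. Counted by region, 11 of the 18 regions at these genes lay under 1 kb from an Nrf2 control interval, where 14.4% of all 494 did. None of the 18 held the full ARE core within 100 bp of its centre, 1 held the looser core, 3 an AP-1 site, and 14 none of these words. Over all 494 regions these shares were 12.6%, 32.0%, 30.4% and 52.2%. At the first of these shares, a set of 18 regions may hold no full core. With the 71 regions close to an Nrf2 control interval left out, 7 of the 42 genes still had a region: AKR1B10, AKR1C2, CBR3, GCLC, HMOX1, TKT and TXNRD1.

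Among the iron and heme genes of the list, HMOX1, heme oxygenase, which breaks down heme, had regions at -2.65 kb (188 bp) and -0.488 kb (217 bp) from its canonical TSS. FTL, the ferritin light chain, had regions at -2.7 kb (266 bp) and -0.083 kb (255 bp) on either side of an interval called in both conditions, which had 1645 bp in the Nrf2 arsenic library. FTH1, the ferritin heavy chain, had its region at -2.84 kb, and BLVRB, a biliverdin reductase, at 1.86 kb. All but the HMOX1 region at -0.488 kb lay under 1 kb from an Nrf2 control interval.

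Thioredoxin and glutathione genes had the same arrangement in part. TXNRD1, thioredoxin reductase, had regions at 0.482 kb (312 bp) and 2.35 kb (190 bp), the second of them 476 bp from an Nrf2 control interval of 1808 bp. MGST1, a microsomal glutathione transferase, had regions at -0.478 kb (296 bp) and -0.016 kb (327 bp), beside an Nrf2 arsenic interval of 1739 bp. The GCLC region, at the gene for the catalytic subunit of glutamate cysteine ligase, held an AP-1 site and lay 1.05 kb from an alternative TSS but -70.8 kb from the canonical one, with the nearest Nrf2 control interval 67012 bp away. CBR3, a carbonyl reductase, had its region at -0.186 kb, and AKR1B10, an aldo-keto reductase, at -0.18 kb with an AP-1 site. AKR1C2, another aldo-keto reductase, had a region at -2.4 kb from an alternative TSS and -16.5 kb from the canonical one. NQO2, a quinone reductase, and PIR, pirin, had regions 844 and 292 bp from an Nrf2 control interval. TKT, transketolase, whose pathway with TALDO1 returns pentose phosphates to glycolysis, had a region of 637 bp at 1.45 kb.

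**Figure D5:**
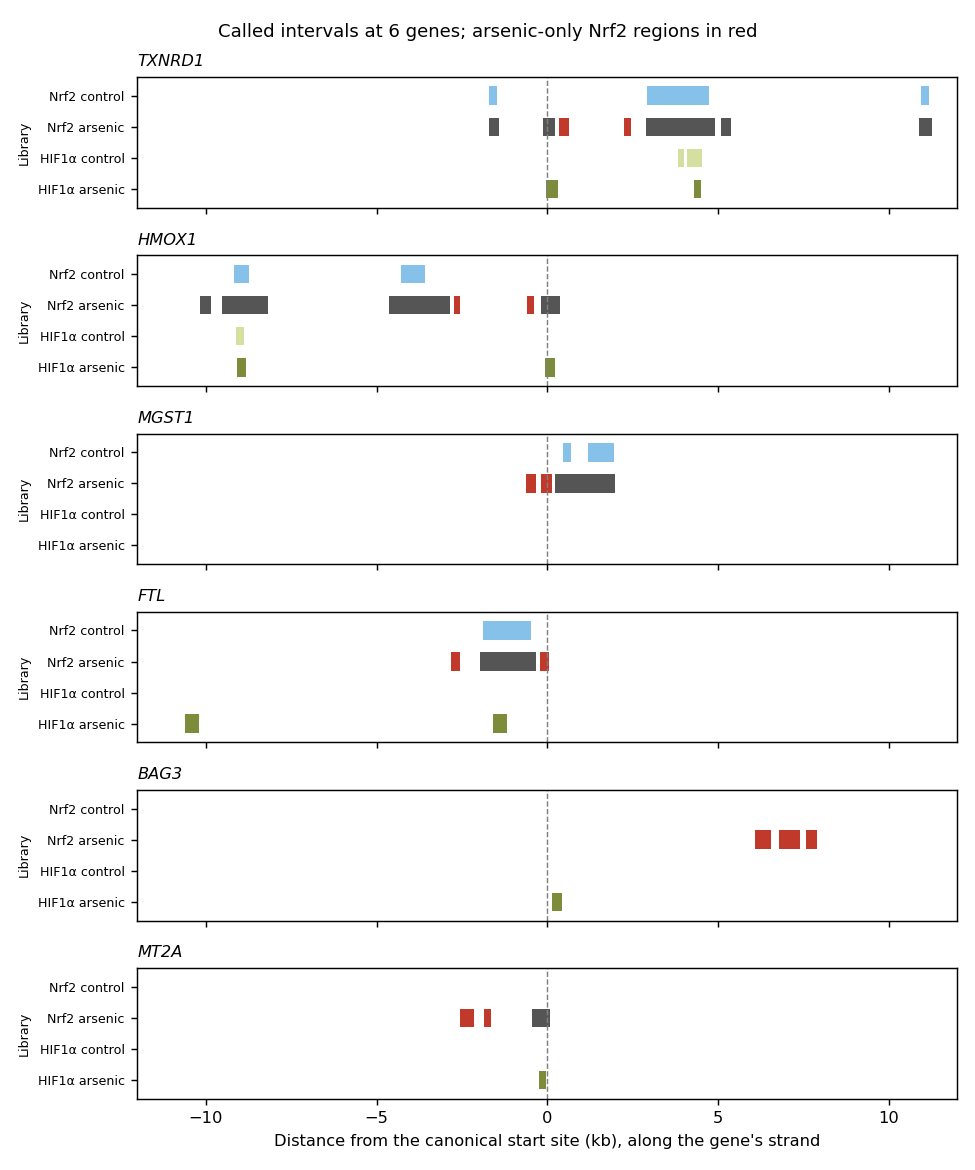
Intervals of the 4 libraries (rows) within 12 kb of the canonical TSS of 6 genes, chosen after their values were seen, with distance along the gene (kb, x axis), arsenic-only Nrf2 regions in red and other Nrf2 arsenic intervals in dark grey. At TXNRD1, HMOX1, MGST1 and FTL the red regions stand beside wider intervals, several of them called in control cells too, while at BAG3 and MT2A no Nrf2 control interval is drawn.

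Among 22 regulators and partners of Nrf2, 2 had a region (9.09%). BACH1, the repressor that competes for the ARE, had one of 398 bp in an intron at 0.178 kb with the full core printed above, 42170 bp from the nearest Nrf2 control interval. NFE2L1, an Nrf2 relative that controls proteasome genes, had one of 565 bp at -0.39 kb. Within 100 bp of its centre it held none of the ARE or AP-1 words. ATF3, a stress-induced partner in AP-1, was the only one of 16 AP-1 family genes with a region, at 1.79 kb from an alternative TSS and -41.6 kb from the canonical one.

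Of 26 heat shock and folding genes, BAG3 and HSPB8 had regions (7.69%). Their proteins work together, as BAG3 joins HSP70 to the small heat shock protein HSPB8 in selective autophagy. BAG3 had 3 regions, at 1.08, 1.84 and 2.49 kb from an alternative TSS and 6.31, 7.08 and 7.72 kb from the canonical one, with widths of 479, 610 and 314 bp. All 3 held the looser core and the middle and widest one the full core. The nearest Nrf2 control interval was 8537 bp away. The HSPB8 region had 532 bp at 0.765 kb and lay 803319 bp from the nearest Nrf2 control interval. Of 53 proteasome and autophagy genes, PSMC1 and PSMD4, both of the proteasome's regulatory particle, had regions (3.77%), at 0.102 and 0.157 kb.

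Of 22 metallothionein and arsenic handling genes, 2 had a region (9.09%). MT2A, a metallothionein that binds metals through its cysteines, had regions at -2.35 kb (407 bp, with a looser core and an AP-1 site) and -1.75 kb (208 bp), and none of the Nrf2 control intervals lay within 200 kb. SLC2A1, the glucose transporter GLUT1, which is also on the glycolysis list, had a region of 435 bp at -0.084 kb from an alternative TSS and 15.5 kb from the canonical one, 417 bp from an Nrf2 control interval.

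Of 37 genes of glycolysis and of the hexosamine and serine pathways, 6 (16.2%) had a region, against 2.46% of all genes. They were GAPDH, GLDC, PDK1, PFKP, PKM and SLC2A1. The study names genes of these pathways from the same libraries, so the count is no independent evidence. At 5 of these 6 a HIF1α arsenic interval also lay near a TSS, as it did at 34 of the 37 genes on the list. PKM, pyruvate kinase, had regions of 218 and 295 bp at 0.888 and 0.526 kb from an alternative TSS. They lay 3.4 and 3.04 kb from the canonical one. GAPDH, glyceraldehyde phosphate dehydrogenase, had one of 207 bp at -0.34 kb, 364 bp from an Nrf2 control interval. The PDK1 region, -2.38 kb from an alternative TSS and -3.1 kb from the canonical one, held the full core. Of the 7 regions at genes of this list, only that at GAPDH lay within 3 kb of the canonical TSS. The regions at PFKP, a phosphofructokinase, and GLDC each held an AP-1 site and lay 40 and 79.1 kb from the canonical TSS. Of 23 genes of HIF1α and its regulators, NDRG1, a hypoxia-induced gene, alone had a region (4.35%), at 0.015 kb and 397 bp from an Nrf2 control interval.

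Among 16 stemness genes that the study names, BACH1, CD44 and MYC had a region (18.8%). The list was chosen by the study on these samples, so the count is no independent evidence. The CD44 region, at the gene for the hyaluronan receptor, had 341 bp at 0.118 kb with a looser core, and the MYC region 198 bp at 0.08 kb with none of the ARE or AP-1 words. Both lay under 1 kb from a HIF1α arsenic interval, with gaps of 108 and 157 bp. Of 27 airway and squamous epithelial genes, 4 keratin genes had a region (14.8%), and they did so through 3 regions. KRT8 and KRT18, partners in the filaments of simple epithelia, shared one at the KRT18 locus. It lay 0.654 kb from the canonical TSS of KRT18 and -44.7 kb from that of KRT8. KRT8 had a second with the full core at 1.1 kb from an alternative TSS and -20.3 kb from the canonical one. KRT15 and KRT19 shared a region of 483 bp with the full core, -5.11 and 4.31 kb from their canonical TSSs. Of 20 EGF receptor ligands and feedback genes, none had a region. With regions at only 2.46% of all genes, a list of this length may hold none. A HIF1α arsenic interval lay near a TSS of 15 of the 20, and of 46.5% of all genes. Over all 11 lists, 35 of 301 genes had a region, 14 of them on the Nrf2 target list, against 2.46% of all genes.

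At 56 genes, 2 or more arsenic-only regions lay within 3 kb of a TSS, with 49 genes at 2 and 7 at 3, and 109 regions in all. An Nrf2 control interval lay near a TSS of 19 of the 56 and a HIF1α arsenic interval near that of 43. The shares were 20.8% and 64.4% over the 486 genes with a region, and 3.66% and 46.5% over all genes. Some of the 56 share their regions, as CLDN6, HCFC1R1, THOC6 and TNFRSF12A do. Beside BAG3, the genes with 3 regions were CMBL, DST, IL1R1, KAZN, MACF1 and SEPTIN9. CMBL, a hydrolase, had regions at -0.778, -1.05 and -2.56 kb, and was the only one of the 7 with all 3 near its canonical TSS. IL1R1, the interleukin-1 receptor, had regions at -1.07, 0.852 and 1.33 kb from an alternative TSS and 71.5 to 73.9 kb from the nearest canonical TSS, that of IL1R2, 424 to 1139 bp from an Nrf2 control interval. DST and MACF1, both giant linkers of the cytoskeleton, and SEPTIN9, a filament-forming GTPase, had theirs 77 to 260 kb from the nearest canonical TSS of any gene, which for MACF1 was that of NDUFS5. KAZN, kazrin of the cornified envelope, MACF1 and SEPTIN9 each had the full core in 1 of their 3 regions. Among the genes with 2 regions were stress genes outside the lists, named after their values were seen: PPP1R15A, a phosphatase subunit that restores translation after stress, had regions at 1.61 kb with the full core and at 2.23 kb, and GADD45A, a growth arrest gene, at -0.957 and 2.54 kb.

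The 12 regions with a full core nearest a TSS were a mixed set of genes. IGFBP6, an insulin-like growth factor binding protein, had one of 564 bp at -0.014 kb, ADGRG1, an adhesion receptor, one of 438 bp at 0.027 kb, and COQ8B, a kinase-like protein of coenzyme Q synthesis, one of 278 bp at 0.045 kb. PRR5, a partner of mTOR, and EIF4G1, the scaffold of the cap-binding complex, both had theirs at -0.047 kb, ROM1 at -0.048 kb and SRPX2 at -0.055 kb. SLC22A18, PHEX, PFN2, TEX19 and NEK8 followed at 0.103, -0.147, -0.158, -0.166 and 0.176 kb. Of these 12, none lay under 1 kb from an Nrf2 control interval, where 71 of all 494 regions (14.4%) did. At that share a set of 12 may hold none. The nearest such interval was 7378 bp away, at NEK8. From their canonical TSS, EIF4G1 was 5.64, NEK8 6.67, PRR5 -25.2, PFN2 -52.1 and PHEX 104 kb away.

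At the edge of the 3 kb limit, the farthest regions inside were at KRBOX4 (2997 bp from the TSS), AHCY (2990 bp), which hydrolyses S-adenosylhomocysteine, and ABHD4 (2959 bp). The nearest arsenic-only Nrf2 regions outside it were at RAB18 (3003 bp), at a gene without a symbol (3014 bp) and at ACTR3C (3042 bp). Their widths, 253, 282 and 300 bp inside and 212, 239 and 312 bp outside, overlapped.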

How the data were processed

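Each of the 4 ChIP libraries was used as deposited. Per the submitters' processing notes and the methods, the authors aligned reads to hg19 (BWA and MACS2 2.1.0 are named), down-sampled tags within a group and called peaks with MACS or SICER. The file the authors deposited gives base positions only (start and end of each interval, and regions merged over the libraries), with no counts, heights or scores. Starts were converted to 1-based. The members, gene lists and tests were chosen with earlier results of these data known. TSSs, canonical transcripts and places came from GENCODE release 44 lifted to GRCh37 (89204 protein-coding transcripts of 19794 genes), and sequences from hg19. Words were searched on both strands in 100 bp on each side of the centre. Shares carry Wilson and differences Newcombe 95% intervals, which cover counting error only, and tests were two-sided Fisher's exact tests with Benjamini-Hochberg adjustment (24 for words by class, 8 for words by distance, 2 for each measure of position; threshold 0.05). Named genes were the 12 widest regions, the 12 with a full core nearest a TSS, all at listed genes, those at the 3 kb limit, and genes with 2 or more regions. Python 3.11.15, SciPy 1.17.1, pysam 0.24.0 and bedtools 2.31.1 were used, and the steps were tested on simulated data. Alternatives were other TSS distances, canonical TSSs, distance from other libraries (also in every class), wider intervals, regions merged anew, autosomes and X alone, other windows and other dividing distances. The input has no intervals, and no columns were left unused.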

Additional observations from a re-analysis of the deposited data

How the results depend on the processing

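Of 357 values recomputed under alternatives, 292 were rated unchanged, and no difference that changed sign passed the threshold. Unchanged meant the same direction and side of the threshold, a value within its interval or, for counts, one within a fixed ratio. Merging regions anew and keeping autosomes and X alone again gave 494 regions with a median width of 263.5 bp. The 292 therefore overstate how widely the choices were varied. Depth is unknown and each condition has 1 library, so no limit of detection or replicate error can be given. No paired analysis was possible because each group has 1 library.

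The regions numbered 268 within 1 kb of a TSS, 327 with canonical TSSs, 286 at least 1 kb from other libraries' intervals and 247 in the wider 50%, whose median width was 367 bp. Within 1 kb, 7 Nrf2 targets and 21 listed genes had a region, and 7 targets did with regions at least 1 kb from any Nrf2 control interval, an alternative chosen after seeing the data. Among the genes, Nrf2 control intervals were found at 15.2% (1 kb), 16.3% (canonical) and 12.6% (regions apart from other libraries), HIF1α control at 25.9%, 24.5% and 20.6%, and HIF1α arsenic at 58.9% (canonical) and 48.3% (apart).

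The limits to regions apart from other libraries and to the wider 50% held for the 494 regions alone. Against regions away from start sites, differences that no longer passed were, with the 494 limited to those apart from other libraries, -1.25 points for the full core, -4.6 for the AP-1 site and 3.16 for the HRE core, and for the wider 50%, -3.46 for the full core and 3.68 for the HRE core. Against Nrf2 regions of both conditions they were, for the full core, -5.56 (canonical), -5.29 (apart), -7.5 (wider) and -2.62 (50 bp on each side), and for the AP-1 site -0.58 (apart), -8.92 (wider), -0.994 (50 bp) and -8.37 (centre of the Nrf2 arsenic interval). With every class limited to regions at least 1 kb from the libraries without a call in them, chosen after seeing the data, the full core gave -3.12 against regions away from start sites and -6.34 against those of both conditions, and the HRE core 3.5 against the former, none past the threshold, while the AP-1 site passed against the former (-7.92) and was 0.263 against the latter. By distance from the TSS, the GC box (10.9 and 10.6 points) and the AP-1 site (-13.4 and -13.2) passed when divided at 1 kb and when the whole interval was searched. Differences gained elsewhere were, against regions of both conditions with the whole interval searched, -21.6 (HRE core), -20.2 (CCAAT box) and -26.1 (looser core), the last also within 5 kb (-8.18), and for the ETS word against regions away from start sites 1.75 (1 kb), 1.52 (5 kb and whole interval) and 1.87 (canonical). The cause of these changes was not tested.

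The other differences that changed sign were of words that had not passed the test. For the looser core they were 4.79 (apart) and 3.23 (wider) points against regions away from start sites, and 1.42 (canonical), 0.973 (apart) and 1.51 (50 bp) against regions of both conditions. For the CCAAT box they were 0.357 (apart) and 0.283 (wider) against regions away from start sites. Against regions of both conditions they were -1.44 (1 kb), -0.154 (apart), -2.17 (whole interval) and -0.339 (50 bp) for the ETS word, -6.56 (whole interval) for the GC box and -0.744 (whole interval) for TGACGTCA. That word also gave 0.0372 (1 kb) against the HIF1α class and -0.232 (50 bp) against regions away from start sites. With every class limited in that way, the looser core gave 2.09 against regions away from start sites and 0.102 against those of both conditions, the CCAAT box 0.541 and 0.981, and the ETS word -0.0526 against the latter.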
